A study of Mus musculus with 20 samples.

Results

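Chromatin accessibility was compared between follicular helper T cells (Tfh cells) that carried a heritable mark of T-bet expression and Tfh cells that did not. The comparison used 4 of the 8 DNase-seq libraries (made by scDNase-seq, a form of the assay for few cells) among the 20 libraries of the series: 2 of CXCR5-high PD1-high Tomato+ cells and 2 of CXCR5-high PD1-high Tomato- cells, chosen by their sample titles. The CD4 T cells bound the AS15 tetramer and were sorted on day 16 from lymph nodes that drain the site of an injection of AS15 in CFA (complete Freund's adjuvant). All 4 libraries came from T-bet-Cre mice with a Rosa26-loxP-STOP-loxP-tdTomato allele on a C57BL/6 background, so Cre and the reporter allele were present in the Tomato- cells as well. In this model Tomato marks any cell in which T-bet-Cre was active at some time, and its descendants, so present and past T-bet expression are not told apart by the gate. The 4 DNase libraries of the matching CXCR5-low PD1-low (non-Tfh) Tomato+ and Tomato- cells of the same mouse line served as separate libraries in which regions chosen in Tfh cells were looked up. The labels do not say whether Tfh and non-Tfh cells were sorted from the same animals, so these libraries may not be independent. Whether replicates came from separate animals is not given in the labels, so the spread between replicates may be technical.

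Tfh cells enter B cell follicles and help B cells, and are defined by the transcription factor BCL6, the follicle-homing receptor CXCR5 and the inhibitory receptor PD1. T-bet, encoded by Tbx21, is the transcription factor that directs T helper 1 (Th1) cells and their cytokine interferon gamma, and it can also be expressed in cells that become Tfh cells. DNase I cuts DNA preferentially where nucleosomes are loose or absent, as at active promoters and enhancers. An island in these data is a run of windows enriched in DNase-seq reads, and its score is the authors' measure of that enrichment. The question of the comparison is whether Tfh cells with the Tomato mark differ in open chromatin from Tfh cells without it.

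Separate RNA libraries of the same gates carried the transcripts that define the sort. Cxcr5 measured 360 and 258 RPKM (the authors' reads per kilobase of transcript, scaled to library size) in Tomato+ and 394 and 277 RPKM in Tomato- Tfh libraries, and Bcl6 measured 110 and 95.2 RPKM in Tomato+ and 139 and 100.7 RPKM in Tomato- libraries. Tbx21 measured 106 and 53.0 RPKM in Tomato+ and 12.8 and 12.9 RPKM in Tomato- libraries, and Ifng, the gene of interferon gamma, measured 87.2 and 91.3 RPKM in Tomato+ and 10.5 and 1.03 RPKM in Tomato- libraries. Some Tbx21 transcript was thus present in the Tomato- libraries, so lack of the mark is not read here as lack of T-bet expression. Pdcd1, which encodes PD1, measured 656 and 542 RPKM in Tomato+ and 715 and 547 RPKM in Tomato- libraries. The T cell transcripts Cd4 (417 and 387 RPKM in Tomato+, 340 and 405 RPKM in Tomato-) and Cd3e (232 and 300.3 RPKM in Tomato+, 197 and 284 RPKM in Tomato-) were present in all 4. Transcripts of other cell types were present as well. The summed RPKM of 3 macrophage and monocyte markers (Lyz2, Cybb and Csf1r, none at 0) was 260 and 209 in Tomato+ and 684 and 878 in Tomato- libraries. Most of it was Lyz2, at 244 and 199.2 RPKM in Tomato+ and 666 and 827 RPKM in Tomato- libraries, and the groups overlapped in Cybb, at 11.8 and 6.92 RPKM in Tomato+ and 9.83 and 15.5 RPKM in Tomato- libraries. The sum of 2 neutrophil markers (S100a8 and S100a9, none at 0) was 1.04 and 2.47 in Tomato+ and 9.91 and 396 in Tomato- libraries, mostly S100a8, and S100a9 alone was 0.378 and 0.614 RPKM in Tomato+ and 0.210 and 95.9 RPKM in Tomato- libraries. These are RNA values from other libraries, and the part of such cells in the DNase results was not tested. In bulk samples a smaller share of cells with an open region and a weaker opening in each cell cannot be told apart.

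Both Tomato+ Tfh lists held fewer and wider islands than both Tomato- Tfh lists, while the covered lengths of the genome overlapped. The Tomato+ libraries held 14084 and 15374 islands and the Tomato- libraries held 18742 and 17531. Both Tomato+ libraries lay below both Tomato- libraries, with means of 14729 ± 912 and 18137 ± 856 islands (SD, n = 2 each). The exact permutation test gave p = 0.333 (two-sided), the smallest value that 2 libraries against 2 allow. The islands covered 38.7 and 41.6 Mb in Tomato+ and 42.2 and 37.6 Mb in Tomato- libraries, so the groups overlapped in total length (exact permutation p = 1, n = 2 each). The median island was 2400 bp wide in both Tomato+ libraries and 2000 bp in both Tomato- libraries, and the mean width was 2725 ± 28.9 bp in Tomato+ and 2199 ± 76.3 bp in Tomato- libraries (SD, n = 2 each; exact permutation p = 0.333). At each percentile of width between the narrowest and the widest island, both Tomato+ libraries were wider than both Tomato- libraries. Islands of 1000 bp or less made up 6.60% and 7.46% of the Tomato+ lists and 12.6% and 15.0% of the Tomato- lists. Islands of 4000 bp or more made up 16.6% and 15.7% of the Tomato+ lists and 8.12% and 6.71% of the Tomato- lists. The lowest score in a list was 48.0 and 50.4 in Tomato+ and 39.9 and 41.2 in Tomato- libraries, higher in the group with the shorter lists. Within Tomato+ the longer list had the higher lowest score. Read totals of the DNase libraries are not given in the files, so the depth is unknown, and its part in island number and width was not tested.

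**Figure D1:**
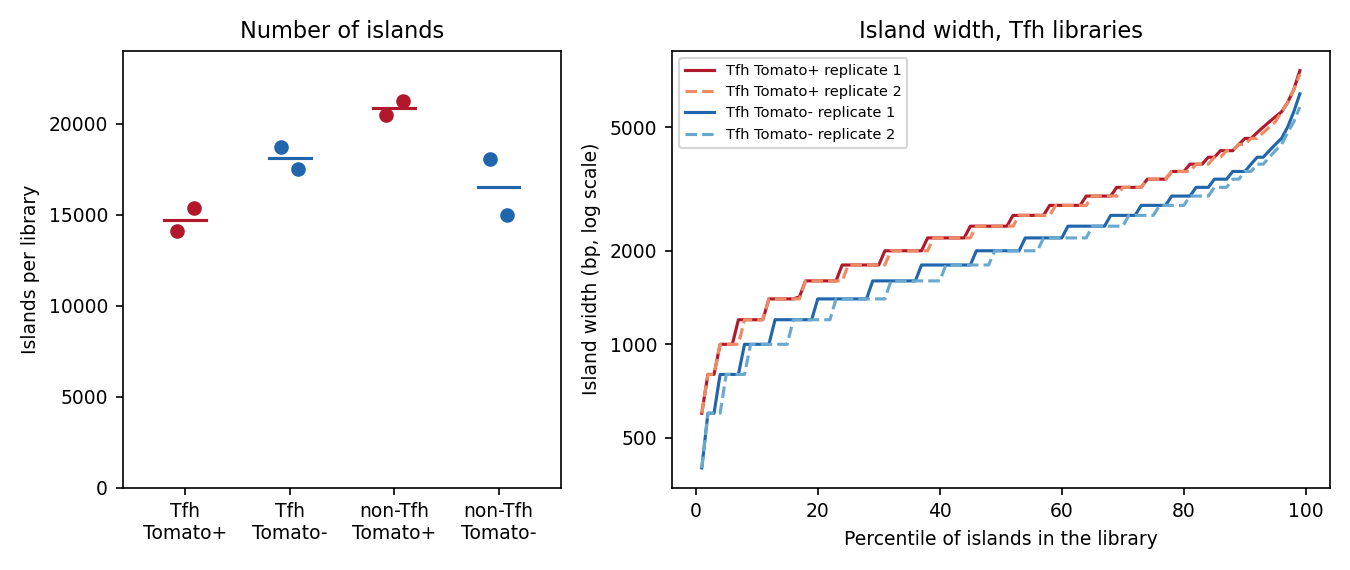
The left panel plots the number of islands in each of the 8 DNase libraries (points) with the mean of each pair (lines), and the right panel plots island width in bp on a log scale against the percentile of islands within each Tfh library. Both Tomato+ Tfh libraries have fewer islands than both Tomato- Tfh libraries and lie above them in width, with medians of 2400 bp and 2000 bp, whereas among non-Tfh libraries the Tomato+ lists are the longer ones.

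Most strong islands were common to all 4 Tfh libraries. Islands that overlapped or touched were merged into 21075 regions, and a library was said to hold a region if it had an island there. All 4 libraries held 11710 regions (55.6%), and 4398 regions (20.9%) were held by a single library. Sharing followed the score: of the regions in the highest quintile of scores, 99.9% and 100% of those in Tomato+ libraries and 99.97% and 99.97% of those in Tomato- libraries were held by all 4. In the lowest quintile these shares were 50.3% and 36.0% in Tomato+ and 11.1% and 16.0% in Tomato- libraries. The differences in presence therefore lay mainly among low-scoring islands.

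Overlap of replicates was close to overlap of the 2 Tomato states. The Jaccard index over 200-bp bins (bins covered in both libraries as a share of bins covered in either) was 0.493 between the Tomato+ replicates and 0.507 between the Tomato- replicates. Between a Tomato+ and a Tomato- library it was 0.482 and 0.483 for Tomato+ replicate 1 and 0.483 and 0.502 for Tomato+ replicate 2. The mean within groups exceeded the mean between groups by 0.0126, and did not hold up against the other ways of pairing the 4 libraries (exact permutation test, two-sided, 3 splits, p = 0.667). It was 0.000167 without Tomato- replicate 1. The Tomato+ lists are the shorter ones, and 94.2% and 92.3% of the islands of Tomato+ replicate 1 overlapped an island of the Tomato- replicates, against 72.0% and 75.6% in the other direction. For Tomato+ replicate 2 the shares were 90.9% and 90.5%, against 75.6% and 80.6% in the other direction.

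Regions present in only 1 Tomato state were few. Held by both Tomato+ and neither Tomato- library were 140 regions, 0.664% of the 21075. Held by both Tomato- and neither Tomato+ library were 1191 regions, or 5.65%. The imbalance was smaller or turned under some other settings of list length and of the rule for holding a region, and its source was not tested. When the 14084 highest-scoring islands were taken from every library, 373 of 17413 regions (2.14%) were private to Tomato+ and 304 (1.75%) to Tomato-, so the direction turned. Counted in 200-bp bins, where width counts, 12550 of 347197 bins were private to Tomato+ and 12426 to Tomato-. With 1 library left out, Tomato+ private regions numbered 338 to 726 and Tomato- private regions 1894 to 3461, and each of the 4 omissions moved both counts by over 1.5 times, since 1 library then stands for a group. These counts describe lists above a score limit and carry no test.

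**Figure D2:**
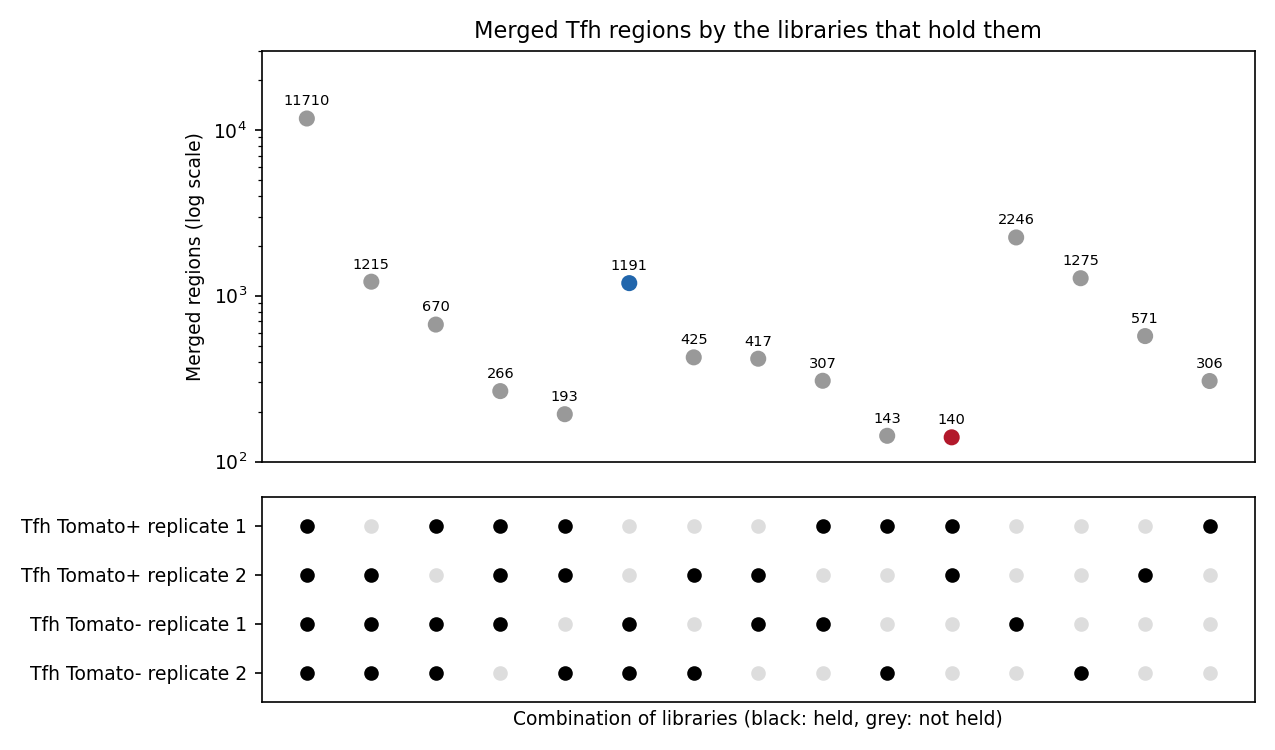
Each point gives the number of merged Tfh regions, on a log scale, held by the combination of libraries marked in black beneath it. The red point marks the 140 regions private to Tomato+ and the blue point the 1191 private to Tomato-, beside 11710 regions held by all 4 libraries.

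The private regions were weak islands of either group. In the Tomato+ libraries the 140 Tomato+ private regions had a median score percentile of 14.8 in replicate 1 and 19.1 in replicate 2, where 100 is the strongest island of the list. The 1191 Tomato- private regions stood at median percentiles of 20.6 and 16.0 in the Tomato- libraries. Regions held by all 4 stood at 57.9 and 61.4 in Tomato+ and 68.4 and 66.3 in Tomato- libraries. Few private regions scored above the median island of their list, 2 and 5 of the Tomato+ private and 32 and 16 of the Tomato- private regions. Tomato+ private regions were spread over 19 chromosomes and Tomato- private regions over 20. On chromosome 2 lay 17 of the Tomato+ private regions (12.1%) and 88 of the Tomato- private regions (7.39%), beside 8.20% of the regions held by all 4. On X lay 0 of the Tomato+ private regions and 16 of the Tomato- private regions (1.34%), beside 1.48% of the regions held by all 4. They lay at a median of 18.6 kb (Tomato+ private) and 25.4 kb (Tomato- private) from the nearest region held by all 4.

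The strongest Tomato+ private region was chr2:166486801-166492800 (mm9), with islands of 6000 and 4200 bp at score percentiles 63.5 and 53.6. It held islands in all 4 non-Tfh libraries, as did chr6:108614801-108616000 (percentiles 46.4 and 35.8), chr15:66338801-66341400 (13.8 and 61.9), chr9:54489001-54492200 (42.9 and 32.6) and chr3:130759801-130761000 (29.4 and 43.9). These regions were therefore missing from the Tomato- Tfh lists while present in Tomato- non-Tfh lists. The region chr2:135708001-135714800, 6800 bp wide with percentiles of 24.3 and 50.5, had no island in any non-Tfh library. The region chr3:52199201-52204200 (50.01 and 23.3) was held by 1 library of each non-Tfh group. The last of the 10 strongest, chr11:97685201-97688000 (29.3 and 42.7), chr8:41667801-41672400 (33.4 and 38.3) and chr13:91230001-91234400 (20.4 and 46.3), were held by both non-Tfh Tomato+ and neither non-Tfh Tomato- library. No gene annotation of the mm9 build was used, so no gene is assigned to any region.

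Among Tomato- private regions the strongest was chr7:46555001-46562800, with islands of 7800 and 6200 bp at score percentiles 62.6 and 55.8, and it was held by 3 of the 4 non-Tfh libraries. It was followed by chr2:4981801-4985800 (54.9 and 53.2) and chr5:75339601-75342200 (55.3 and 52.1), both held by all 4 non-Tfh libraries. All 4 also held chr11:57984801-57987600 (43.9 and 57.6) and chr5:142876801-142879400 (43.2 and 53.7). Held by 3 were chr5:116344401-116347800 (50.4 and 50.4), chr3:84062001-84065400 (49.2 and 51.5) and chr10:7673401-7676800 (53.7 and 44.5). The region chr7:134308201-134311400 (52.5 and 52.2) was held by 1 library of each non-Tfh group, and chr6:100530601-100533400 (47.9 and 49.1) by 1 non-Tfh Tomato- library. None of these 10 was held by both non-Tfh Tomato- and neither non-Tfh Tomato+ library.

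The Tomato+ private regions of Tfh cells held islands more often in both Tomato+ than in both Tomato- non-Tfh libraries, which had no part in choosing them. Of the 140 regions, 114 (81.4%, exact 95% interval 74.0 to 87.5) and 117 (83.6%, 76.4 to 89.3) had an island in the non-Tfh Tomato+ libraries. In the non-Tfh Tomato- libraries 67 (47.9%, 39.3 to 56.5) and 49 (35.0%, 27.1 to 43.5) had one. Over all 21075 Tfh regions the shares were 77.7% and 76.8% in non-Tfh Tomato+ and 74.5% and 67.0% in non-Tfh Tomato- libraries. The intervals count regions and cover counting error only. The mean difference for the 140 regions was 41.1 percentage points, at 82.5 ± 1.52% in Tomato+ and 41.4 ± 9.09% in Tomato- libraries (SD, n = 2 each; exact permutation p = 0.333, the smallest possible). The groups did not overlap. The same order, with both non-Tfh Tomato+ above both non-Tfh Tomato- libraries but smaller gaps, was seen over all Tfh regions. It was also seen in regions held by a single Tfh library, except Tfh Tomato- replicate 2, where the groups overlapped. Regions held only by Tfh Tomato+ replicate 1 (306) were held at 43.1% and 40.8% in non-Tfh Tomato+ and 26.5% and 15.7% in non-Tfh Tomato- libraries, and those held only by Tfh Tomato+ replicate 2 (571) at 56.0% and 60.4% in Tomato+ and 38.2% and 20.3% in Tomato- libraries. Regions held only by Tfh Tomato- replicate 1 (2246) were held at 29.1% and 27.0% in non-Tfh Tomato+ and 23.3% and 13.4% in non-Tfh Tomato- libraries, and those held only by Tfh Tomato- replicate 2 (1275) at 36.5% and 39.2% in Tomato+ and 39.5% and 17.1% in Tomato- libraries.

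For the 1191 Tomato- private regions the shares were 53.7% and 51.6% in non-Tfh Tomato+ and 52.6% and 36.7% in non-Tfh Tomato- libraries, and the groups overlapped (exact permutation p = 0.667, n = 2 each). Set against the Tomato- private regions, the Tomato+ private regions were held more often by 27.8 and 32.0 percentage points in the non-Tfh Tomato+ libraries while the difference was -4.70 and -1.69 points in the non-Tfh Tomato- libraries. The difference between these differences was 33.1 points (exact permutation p = 0.333, the smallest possible for 2 libraries against 2). It was 19.3 points without Tfh Tomato+ replicate 2, 15.9 without Tfh Tomato- replicate 1 and 15.5 without Tfh Tomato- replicate 2, each over 1.5 times smaller. It was gone, at -0.0111 points, when a library had to cover at least 50% of a region's length to hold it, which also enlarged the Tomato+ private set to 807 regions.

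The lists of the non-Tfh libraries also differ in length, with 20460 and 21222 islands in Tomato+ and 18061 and 14980 in Tomato- libraries. With the 14084 highest-scoring islands of all 8 libraries, the 373 Tomato+ private regions were held at 62.5% and 59.8% in non-Tfh Tomato+ and 40.8% and 42.1% in non-Tfh Tomato- libraries. The 304 Tomato- private regions were then held at 22.7% and 18.4% in non-Tfh Tomato+ and 41.4% and 47.4% in non-Tfh Tomato- libraries. All 17413 regions stood at 71.2% and 69.0% in Tomato+ and 72.9% and 74.8% in Tomato- libraries. At equal list length each private set was therefore more frequent in the non-Tfh libraries of its own Tomato state, and neither pair of groups overlapped.

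**Figure D3:**
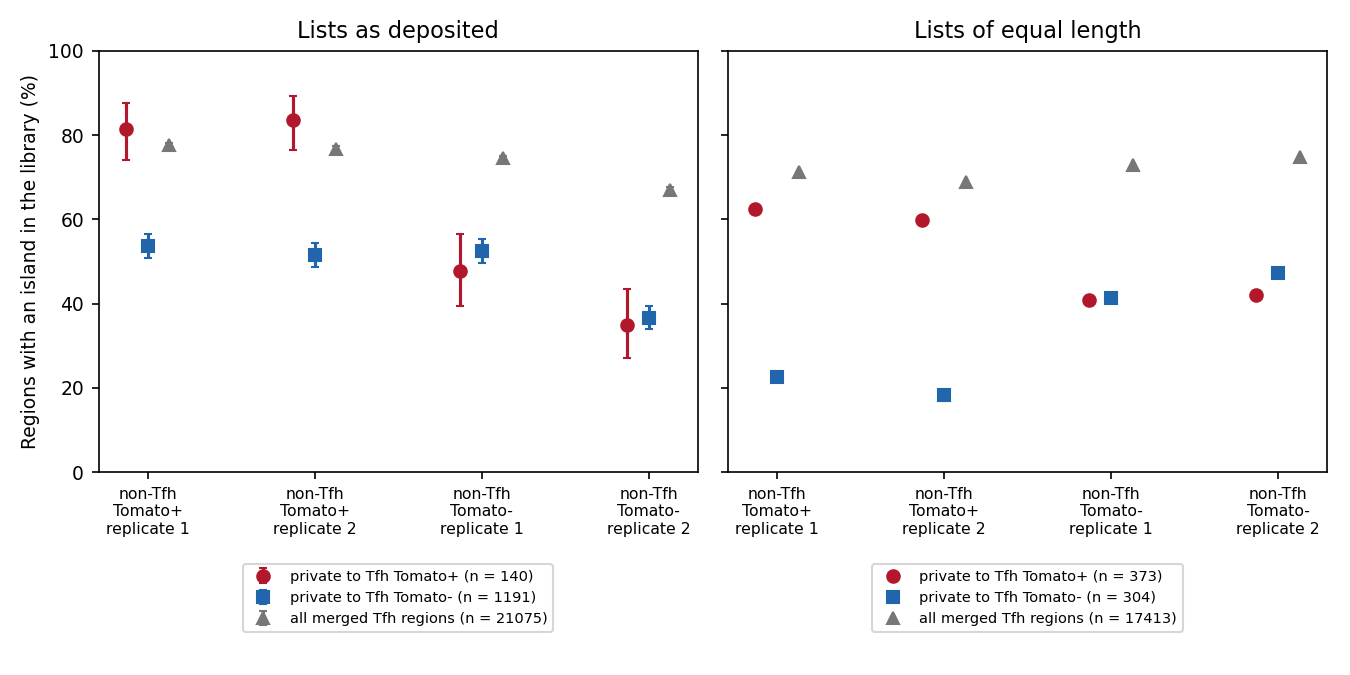
The percentage of regions that hold an island in each non-Tfh library is plotted for regions private to Tfh Tomato+ (red circles), regions private to Tfh Tomato- (blue squares) and all merged Tfh regions (grey triangles), with the deposited lists on the left (bars are exact 95% intervals over regions) and the 14084 strongest islands of each library on the right. Red points are higher in the Tomato+ than in the Tomato- non-Tfh libraries in both panels, and blue points are lower there when the lists have equal length.

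Some regions had islands in all 4 libraries of 1 Tomato state and in none of the other. Of the 140 Tomato+ private regions, 35 (25%) were held by both non-Tfh Tomato+ and neither non-Tfh Tomato- library, against 4.0% of all Tfh regions. The opposite pattern was found in 1 of the 140, against 0.783% of all. All Tfh regions include the 11710 held by all 4 Tfh libraries, which had these patterns in 0.564% and 0.282%. The shares over all regions are therefore lower than those among the rest, to which the private regions belong. Of the 1191 Tomato- private regions, 26 were held by both non-Tfh Tomato- and neither non-Tfh Tomato+ library, and 66 (5.54%) had the opposite pattern. At equal list length, 67 of 373 Tomato+ private regions (18.0%) had the same and 8 (2.14%) the opposite pattern in non-Tfh cells. Of all regions, 2.22% and 3.27% had these patterns. Of the 304 Tomato- private regions, 42 (13.8%) had the same and 2 (0.658%) the opposite pattern, against 3.27% and 2.22% of all. The strongest Tomato+ regions of this kind, singled out after their values were seen, were chr11:97685201-97688000, chr8:41667801-41672400 and chr13:91230001-91234400, followed by chr9:42016201-42020800 (Tfh score percentiles 1.63 and 50.8) and chr12:108958601-108962200 (39.8 and 11.6). The strongest Tomato- regions of this kind were chr15:103150601-103154800 (56.4 and 27.8), chr3:93247001-93250400 (41.4 and 42.1), chr6:83298401-83300000 (42.5 and 32.4), chr1:181596401-181599800 (43.8 and 29.4) and chr16:18391401-18393800 (40.2 and 29.4).

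No region held by all 4 Tfh libraries passed the test for a difference in score rank. Ranks were taken within each library over the same 11710 regions and turned into normal scores, which removes the score scale. List length still acts through the choice of regions, since a region missing from any list was not ranked. With limma and Benjamini-Hochberg adjustment, 0 regions were higher and 0 lower in Tomato+ cells (0% of those tested), with a lowest adjusted p of 0.756. At an unadjusted p below 0.05 there were 681 regions (5.82%), 373 higher and 308 lower in Tomato+. Both Tomato+ libraries ranked above both Tomato- libraries in 1929 regions (16.5%) and below both in 2097 (17.9%). The correlation of normal scores across regions was 0.837 between Tomato+ replicates and 0.848 between Tomato- replicates, and 0.808 to 0.850 between Tomato+ and Tomato- libraries. The values within groups lay inside the range of those between groups.

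The regions with the smallest p in each direction are extremes picked from 11710 tests, and none passed (adjusted p = 0.756, limma). Their differences do not show the typical size. Over all tested regions the median normal-score difference was -0.016. In chr11:107318401-107321000 the rank percentile among shared regions was 51.1 and 31.3 in Tomato+ and 0.585 and 0.978 in Tomato- libraries, a normal-score difference of 2.20 ± 0.28 (SE). Another region of that chromosome, chr11:106991001-106993800, stood at 35.5 and 27.4 in Tomato+ and 0.188 and 0.927 in Tomato- libraries. In chr4:32213201-32214600 the percentiles were 44.9 and 26.9 in Tomato+ and 1.15 and 0.764 in Tomato- libraries. In all 3 regions the Tomato- libraries were barely above the lower end of the list. The region chr5:100954001-100956000 stood at 16.8 and 42.2 in Tomato+ and 0.0555 and 0.209 in Tomato- libraries. In the other direction chr7:7140201-7142600 stood at 1.02 and 1.27 in Tomato+ and 30.1 and 52.1 in Tomato- libraries, a difference of -2.04 ± 0.29 (SE). The region chr17:29573601-29576600 stood at 0.465 and 1.16 in Tomato+ and 24.2 and 39.5 in Tomato- libraries. Away from the lower end of the list in both groups was chr12:118998601-119005400, at 16.9 and 18.2 in Tomato+ and 69.6 and 69.7 in Tomato- libraries, and its island bases were 1600 and 4200 in Tomato+ and 6800 and 3600 in Tomato- libraries. The last of these, chr17:22451401-22452200 and chr16:33682401-33688600, had normal-score differences of -1.58 ± 0.26 and -1.80 ± 0.31 (SE).

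In the shared regions, too, mean island length was greater in both Tomato+ than in both Tomato- libraries. The median island length per shared region was 2400 bp in both Tomato+ and 2200 bp in both Tomato- libraries, and the mean was 2821 and 2865 bp in Tomato+ and 2524 and 2427 bp in Tomato- libraries. The median log2 width difference over regions was 0.18. Both Tomato+ libraries were wider than both Tomato- libraries in 2773 regions (23.7%) and narrower than both in 753 (6.43%). No single region passed in width (limma, 0 higher and 0 lower in Tomato+, 0% each; lowest adjusted p 0.697), and 820 (7.0%) had an unadjusted p below 0.05, 692 wider and 128 narrower in Tomato+. The difference was present at every strength. In the lowest quintile of mean score rank the mean was 2354 and 2310 bp in Tomato+ and 1994 and 1859 bp in Tomato- libraries, and in the highest it was 3498 and 3629 bp in Tomato+ and 3193 and 3134 bp in Tomato- libraries. Shared regions split into more than 1 island numbered 327 and 396 in Tomato+ and 619 and 625 in Tomato- libraries, with no overlap between the groups. When each library's log2 widths were centred on its median, 655 regions had an unadjusted p below 0.05.

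**Figure D4:**
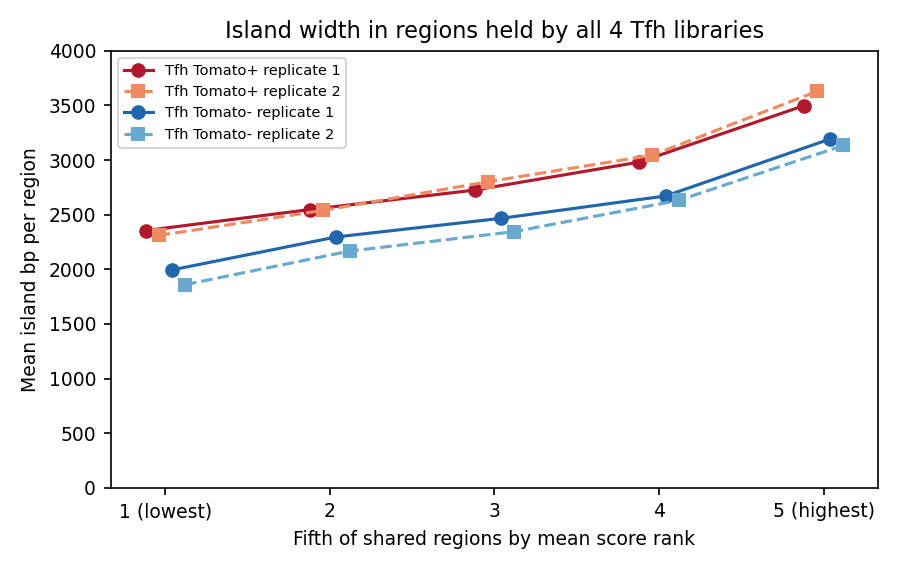
Mean island length per region, in bp, is plotted for the 11710 regions held by all 4 Tfh libraries, grouped into quintiles by mean score rank. Both Tomato+ libraries (red tones) lie above both Tomato- libraries (blue tones) in each quintile, at 2354 and 2310 bp against 1994 and 1859 bp in the lowest.

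The regions with the smallest p in the width fit differed several-fold between the groups, though none passed. In chr5:63244201-63251800 the islands spanned 6200 and 5000 bp in Tomato+ and 800 and 1000 bp in Tomato- libraries (log2 difference 2.64 ± 0.27, SE; adjusted p = 0.697, limma). In chr12:8525801-8530000 they spanned 3400 and 4000 bp in Tomato+ and 600 and 800 bp in Tomato- libraries. The broad region chr9:40910801-40927000 was covered over 12600 and 12200 bp in Tomato+ and 3400 and 2800 bp in Tomato- libraries. Regions with the smallest p are picked for close replicates and separate groups, so these traits carry no further evidence. The regions chr2:25404201-25407600 (3200 and 3000 bp in Tomato+, 800 and 800 bp in Tomato-) and chr7:74365401-74370200 (3400 and 3400 bp in Tomato+, 1000 and 1000 bp in Tomato-) were chosen in the same way. In the other direction the smallest p was that of chr4:59272401-59279400, with 600 and 600 bp in Tomato+ and 4000 and 4000 bp in Tomato- libraries (-2.74 ± 0.22, SE; adjusted p = 0.697, limma). Also chosen in this direction were chr12:114453601-114456600 (1000 and 800 bp in Tomato+, 2600 and 2800 bp in Tomato-), chr14:65270201-65273800 (1000 and 1200 bp in Tomato+, 2800 and 3000 bp in Tomato-), chr3:95558201-95560000 (600 and 400 bp in Tomato+, 1800 and 1600 bp in Tomato-) and chr7:125447601-125449200 (400 and 400 bp in Tomato+, 1000 and 1000 bp in Tomato-).

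The 5 widest shared regions were broad in both groups, apart from Tomato+ replicate 1 in chr3:25415801-25456600. The region chr11:3026801-3100200 was a single island of 73400 bp in all 4 libraries and had the highest score of every list. It scored 33523 and 42745 in Tomato+ and 57715 and 47506 in Tomato- libraries. The median island scored 99.2 and 103 in Tomato+ and 89.9 and 90.9 in Tomato- libraries. Whether so extreme a score reflects open chromatin was not tested. The region chr1:90108001-90167200 was covered over 58800 and 59000 bp in Tomato+ and 59200 and 58800 bp in Tomato- libraries. In chr3:25415801-25456600 the Tomato+ replicates differed widely and the groups overlapped, with 4000 and 40800 bp in Tomato+ and 27800 and 37400 bp in Tomato- libraries. On chromosome 14, 2 regions were covered over fewer bases in both Tomato+ libraries, chr14:69941001-69976800 with 21800 and 22600 bp in Tomato+ and 30800 and 24200 bp in Tomato- libraries, and chr14:70034201-70067600 with 17800 and 18600 bp in Tomato+ and 30000 and 27200 bp in Tomato- libraries. The share of islands on each of the 21 chromosomes differed by at most 0.128 percentage points between the group means.

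The Tomato difference in rank ran in the same direction in Tfh and non-Tfh cells more often than not. Over the 10598 of 25755 merged regions that all 8 libraries held, the Tomato+ minus Tomato- difference in normal score had the same sign in both populations in 58.5% of regions. The differences come from separate libraries. A limma fit of all 8 libraries took the spread from Tfh and non-Tfh replicates together. In it, 0 regions passed for the Tomato difference in Tfh cells (lowest adjusted p 0.122, limma). At an unadjusted p below 0.05 there were 813 regions (7.67% of those tested), of which 451 were higher in Tomato+ Tfh cells. Of these 451, 351 (77.8%) were also higher in Tomato+ non-Tfh cells, where 46.7% of all regions were higher. Of the 362 regions lower in Tomato+ Tfh cells at that limit in the same fit, 139 (38.4%) were higher in Tomato+ non-Tfh cells. Across the 10598 regions the differences in Tfh and non-Tfh cells were weakly related (Pearson r = 0.287, Spearman rho = 0.247), a description across regions that are no independent replicates.

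**Figure D5:**
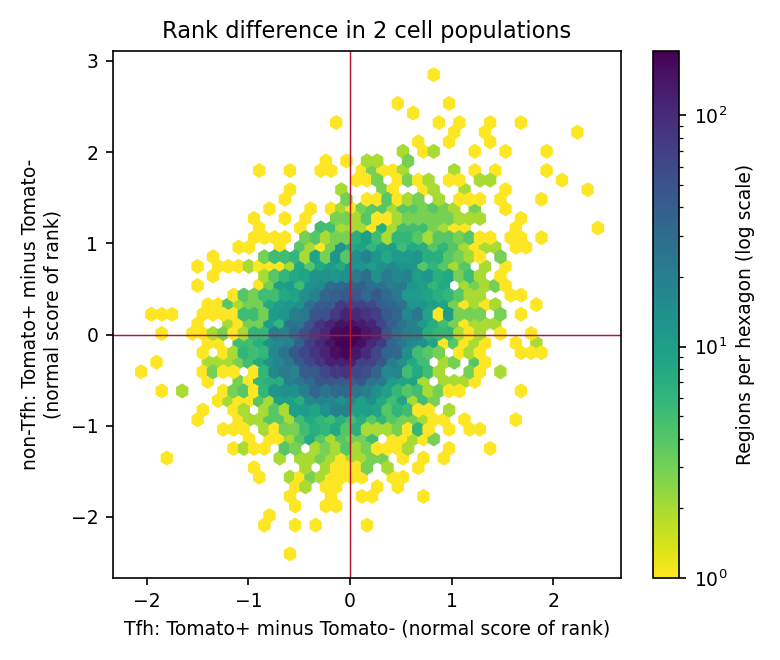
Each hexagon counts regions (log colour scale) by the Tomato+ minus Tomato- difference in normal score of rank in Tfh cells (horizontal) and in non-Tfh cells (vertical), over 10598 regions held by all 8 libraries. The cloud is centred on 0 and tilts slightly upward to the right, with a Pearson r of 0.287.

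No region showed a Tomato difference that differed between Tfh and non-Tfh cells after adjustment (limma interaction, 0 of 10598 regions, 0%; lowest adjusted p 0.613), and 620 (5.85%) had an unadjusted p below 0.05. The smallest p was that of chr14:61326401-61333200, which ranked at percentiles 31.7 and 34.5 in Tfh Tomato+ and 57.5 and 57.1 in Tfh Tomato- libraries. In non-Tfh cells it ranked at 94.1 and 94.9 in Tomato+ and 55.4 and 48.1 in Tomato- libraries, the opposite order (interaction -2.17 ± 0.28, SE; adjusted p = 0.613). The region chr10:120941401-120946000 had the same form, with 39.7 and 33.9 in Tfh Tomato+ and 74.3 and 75.6 in Tfh Tomato- libraries, and 60.5 and 62.8 in non-Tfh Tomato+ and 27.8 and 38.3 in non-Tfh Tomato- libraries. The reverse was found in chr3:89763201-89769400, with 69.2 and 51.7 in Tfh Tomato+ and 28.2 and 22.0 in Tfh Tomato- libraries, and 9.21 and 21.1 in non-Tfh Tomato+ and 57.2 and 56.3 in non-Tfh Tomato- libraries. In chr17:29573001-29576600 the Tomato difference in normal score was -1.98 in Tfh and 0.19 in non-Tfh cells, and the contrast did not pass either (adjusted p = 0.613, limma).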

How the data were processed

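DNase-seq islands of 8 libraries and RNA values of 4 Tfh libraries were used. A DNase file gives chromosome, start, end and the authors' score of every island, used as deposited and only for order within a library. File names show removal of duplicates and the settings W200, G400 and E1, which in SICER's naming are window and gap in bp and the E-value. The submitters' processing notes list CASAVA 2.18, Bowtie2, SICER 1.1, edgeR and the build mm9, and tie none of these to a step. The RPKM were computed by the authors and deposited with each transcript; the row with the highest sum per symbol was used, with no test.

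Islands of the Tfh libraries that overlapped by 1 bp or touched were merged into regions, each scored by its highest island. Positions are 1-based. Ranks (as normal scores) and log2 island bases were tested with limma 3.58.1 in R 4.3.3 with Benjamini-Hochberg adjustment at 0.05. The rank fit was also run on simulated data with the same spread in every region. Real regions need not share a spread, so that run does not show how the fit behaves on them. Exact permutation tests used all 6 arrangements of 4 libraries, or 36 for the interaction. Named regions are the 10 strongest private regions per state, the 5 smallest p per direction of each fit, the 5 widest shared regions and the 5 smallest p of the interaction; others are marked as chosen after their values were seen, and 1 region and 1 marker list are not reported here. Members and lists were chosen with earlier results of these data known. Links of regions to genes and motifs were not run, as no genome or annotation of mm9 was used.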

Additional observations from a re-analysis of the deposited data

Results flagged for a closer look

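Of the 7 values compared between island lists, 4 differed in opposite directions in Tfh and non-Tfh cells, with no overlap between Tomato+ and Tomato- libraries in either. In non-Tfh cells the groups overlapped in covered length, in median width and in the percentage of islands of 4000 bp or more. The number of islands was lower by 3408 in Tomato+ than in Tomato- Tfh cells (difference -3408) and higher by 4321 in Tomato+ than in Tomato- non-Tfh cells, a difference of -7728. Mean island width was 526 bp higher in Tomato+ Tfh cells and lower in Tomato+ non-Tfh cells (-449 bp), a difference of 974 bp. In non-Tfh cells the nearest libraries of the 2 groups were close in mean width, at 1943 bp in Tomato+ and 1962 bp in Tomato-. The lowest score differed by 8.60 in Tfh and by -9.79 in non-Tfh cells, a difference of 18.4. The percentage of islands of 1000 bp or less differed by -6.77 points in Tfh and by 14.7 points in non-Tfh cells, a difference of -21.5 points. Each difference of differences had an exact permutation p of 0.0556, the smallest that 36 arrangements allow. Any value with opposite differences and no overlap reaches this p, so it was fixed by the choice and adds no evidence. The 4 values describe the same island lists and are not separate results. Read depth, which is unknown, was not tested as a source of these values.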

How the results depend on the processing

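No region was called in the rank fit, the width fit or the interaction under any of the 11, 9 and 10 alternatives that were run. Regions at an unadjusted p below 0.05 numbered 601 to 1044 for rank, 550 to 1374 for width and 481 to 775 for the interaction. The samples share only a replicate number, with nothing in the labels to pair them; deviations of same-numbered samples from their group means correlated at 0.137 in rank and 0.0521 in width over 2 pairs. With the replicate block 0 regions were called in each fit, with 865, 646 and 628 at an unadjusted p below 0.05.

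The private counts depended most on the processing. Tomato+ private regions numbered 807 when a library had to cover at least 50% of a region, 373 at equal list length, 51 in the higher-scoring 50% of each list, and 12550 as 200-bp bins. Tomato- private regions numbered 304 at equal list length, 695 in the higher-scoring 50% and 12426 as bins. Tomato+ private regions were 10.5% of all private regions, but 55.1% at equal list length, 50.2% as bins and 40.9% with 50% cover. Without 1 library they numbered 338 to 726 (Tomato+) and 1894 to 3461 (Tomato-). Tomato+ private regions held by both non-Tfh Tomato+ and neither Tomato- library numbered 67 at equal list length. The set difference in non-Tfh libraries, 33.1 points, was 15.5 to 35.2 without 1 library, 43.6 at equal list length of all 8 lists, 49.8 at equal length of the non-Tfh lists, and -0.0111 with 50% cover; the cause was not tested.

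Covered length differed by 0.204 Mb between Tomato+ and Tomato- libraries, by -0.568 Mb in the higher-scoring 50%, by 5.66 Mb at equal list length, and by -2.11 to 2.51 Mb without 1 library (-1.25 Mb without Tfh Tomato+ replicate 2 and -2.11 Mb without Tfh Tomato- replicate 2). The within-group minus between-group Jaccard index was 0.000167 to 0.0251 without 1 library. The following alternatives were chosen after seeing the data: centring; equal list length for ranks, covered length, median width and the count of 67; equal length of the non-Tfh lists; and single libraries left out for the list values, the Jaccard index, the set difference and the interaction. Each comparison is limited by 2 libraries a group and by an unknown read depth.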
